A study of Rattus norvegicus with 320 samples.

Results

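The Rtl1-antisense miRNAs of the imprinted Dlk1-Dio3 region were followed through 11 organs and 4 ages of the rat. They were taken from the deposited table by name, as every row called rno-miR-127, rno-miR-431, rno-miR-433, rno-miR-434 or rno-miR-136 with any arm suffix, which gave 9 of 616 rows from 5 hairpins (among them rno-miR-127-3p, rno-miR-127-5p, rno-miR-431 and rno-miR-136-3p; the species prefix is dropped below). Each of miR-127, miR-433, miR-434 and miR-136 has a row for the strand cut from the 5′ arm and 1 for the 3′ arm of its hairpin, and miR-431 has 1 row. The measurements were small RNA sequencing counts from whole, ground organs of untreated Fischer 344 rats aged 2, 6, 21 or 104 weeks. Adrenal gland, brain, heart, kidney, liver, lung, skeletal muscle, spleen and thymus came from females and males, testis from males and uterus from females, with 4 animals for each organ, sex and age. Per the study, several organs came from each rat, but the labels tie no library to a rat, so tests between organs treat libraries as independent. Of 320 libraries, 2 were left out, a male week 6 brain library and a female week 104 spleen library, because the study set them aside for not clustering with their organ. Levels are given as CPM, the counts of a miRNA per 1000000 miRNA counts of the same library.

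Imprinted genes are read from only the copy inherited from one parent. In the Dlk1-Dio3 region, the protein-coding gene Rtl1 is read from the paternal copy, and a long noncoding transcript that runs antisense to it is read from the maternal copy. The hairpins described here lie in that antisense transcript, so their mature miRNAs pair perfectly with the Rtl1 messenger RNA and can direct its cleavage, and Rtl1 dosage is known to matter for placenta and for muscle growth. The same maternal side carries a larger downstream group of miRNAs, and the region is best known for activity in the fetus, the placenta and the brain.

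The 9 mature sequences are shown because the rows were told apart by these letters alone. They are written 5′ to 3′ as deposited, in the order of the hairpins along the chromosome, with the seed (bases 2 to 8, which choose most targets) in capitals.
rno-miR-431: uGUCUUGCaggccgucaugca
rno-miR-433-5p: uACGGUGAgccugucauuauuc
rno-miR-433-3p: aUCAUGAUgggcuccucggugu
rno-miR-127-5p: cUGAAGCUcagagggcucugauu
rno-miR-127-3p: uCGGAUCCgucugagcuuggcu
rno-miR-434-5p: aGCUCGACucaugguuugaacca
rno-miR-434-3p: uUUGAACCaucacucgacuccu
rno-miR-136-5p: aCUCCAUUuguuuugaugaugga
rno-miR-136-3p: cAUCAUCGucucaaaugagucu
No 2 of these seeds were alike, and none was shared with another row of the table, so the 9 miRNAs form no seed family. In RefSeq, 7 of the 9 sequences were listed as mature sequences, and all 9 were found inside their hairpins.

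The hairpins lie on the plus strand of chromosome 6 in RefSeq's GRCr8 assembly, all 5 within the bounds of the Rtl1 gene, over 4968 bases in all. Mir431 is at chr6:134326449-134326562, Mir433 at chr6:134327358-134327450, Mir127 at chr6:134328454-134328550, Mir434 at chr6:134330402-134330482 and Mir136 at chr6:134331335-134331416. The hairpin of miR-127, which gave most of the counts below, and that of miR-136, whose arm ratio set brain apart from the other organs at week 2, are printed with their mature arms in capitals.
Mir127: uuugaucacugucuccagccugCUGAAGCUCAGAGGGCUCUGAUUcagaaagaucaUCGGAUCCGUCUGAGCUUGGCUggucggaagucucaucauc
Mir136: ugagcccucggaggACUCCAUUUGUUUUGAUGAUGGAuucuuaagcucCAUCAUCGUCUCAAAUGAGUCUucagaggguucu

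Kept libraries held 315550 to 10571766 counts, with a median of 2848155.5, and each organ was spread over 7 or 8 of the 8 sequencing lanes. Marker lists for brain, liver, striated muscle, germ cells and white blood cells were checked against the labels. No list was checked for adrenal gland, kidney, lung or uterus. The white blood cell list held at least 1.17% of the counts in spleen and thymus and up to 1.86% elsewhere. It did not set them fully apart, with 2 other libraries above their lowest. The brain list made up 7.16% to 14.4% of the counts in brain and at most 1.35% elsewhere, the liver list at least 2.05% in liver and at most 0.296% elsewhere, and the striated muscle list at least 5.14% in heart and skeletal muscle and at most 1.70% elsewhere. In testis the germ cell list held 21.2% and 20.2% of the counts at weeks 6 and 21 but 0.779% at week 2 and 0.151% at week 104, so germ cell markers were nearly absent from the oldest testes. Farthest from its group in the whole table was the library of adrenal gland from male 1 at week 21, in which 35 of 168 miRNAs lay more than 4-fold below the lowest of the 7 other libraries. There miR-136-3p was at 32.1 CPM, against 767.8 to 2922 CPM in the others, and miR-431 at 54.7 CPM against 375.2 to 1333 CPM, whereas miR-127-3p, at 46986 CPM, lay within their range. Week 2 spleen RNA was less intact than the rest, per the study's methods. In whole organs, fewer cells of a type and less RNA per cell cannot be told apart.

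miR-127-3p was the dominant product of the locus in every organ. At week 2 it gave 76.6% to 87.7% of the counts of the 9 miRNAs, and miR-434-3p, the next in order, gave 7.03% to 13.0%, while miR-433-5p gave at most 0.0601%. Together the 9 miRNAs made up 31.3 ± 6.25% (SD, n = 8) of all miRNA counts in week 2 skeletal muscle, 20.5 ± 2.51% in week 2 brain, 7.77 ± 1.64% in adrenal gland and 4.72 ± 2.36% in liver. At the same age they held 0.0732 ± 0.0451% in kidney. With totals scaled by TMM, a correction for library composition, the week 2 value was 8.50% in brain and 34.8% in muscle. By mean CPM, miR-127-3p ranked 1 among the 616 rows in week 2 muscle and in brain at every age, and 3 in adrenal gland at every age.

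**Figure D1:**
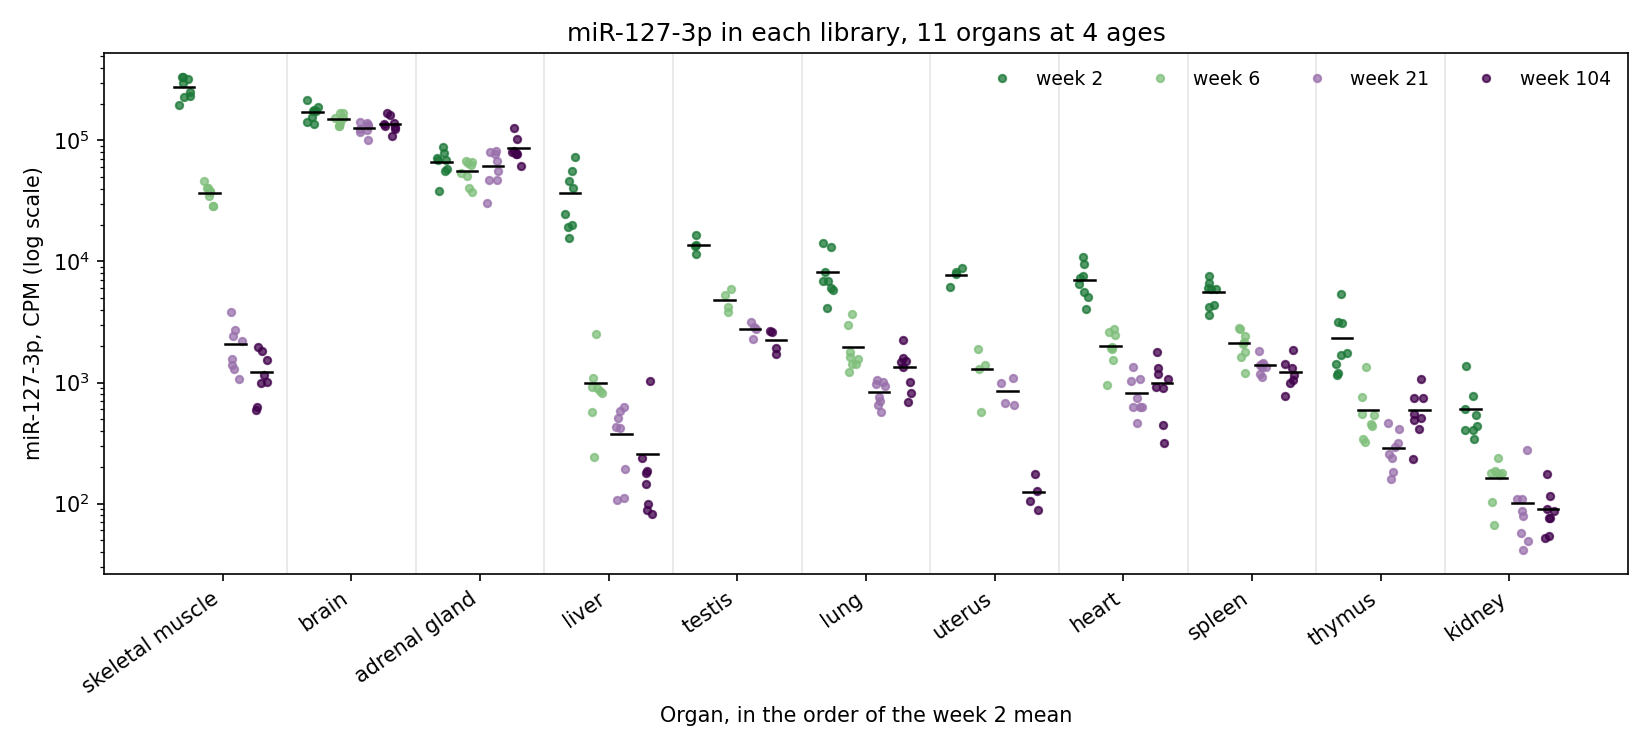
CPM of miR-127-3p (vertical log axis) in the kept libraries of the 11 organs, ordered by week 2 mean; points are libraries, coloured by age in weeks, and black bars are group means. Brain and adrenal gland stay between 30299.5 and 213984 CPM at every age, and muscle goes from a mean of 274524 CPM at week 2 to 1211 CPM at week 104.

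Skeletal muscle lost nearly all of these miRNAs after infancy. miR-127-3p was at 194906, 274687 and 336300 CPM (lowest, median and highest of 8 libraries) at week 2, at 28555, 37896 and 45808 CPM at week 6, at 1074, 1876 and 3843 CPM at week 21 and at 588.6, 1079 and 1975 CPM at week 104. The ranges of weeks 2, 6 and 21 did not overlap, and those of weeks 21 and 104 did. From week 2 to week 104 the scaled log2 fold change was -7.00 ± 0.25 (SE, edgeR quasi-likelihood test, adjusted p = 6.02e-23), and the ratio of the mean CPM was 226.6.

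All 9 miRNAs were called lower in week 104 than in week 2 muscle, a call being an adjusted p under 0.05 and at least a 2-fold change, where 29.1% of the 616 rows were. Every week 104 library lay below every week 2 library for all 9, as it did for 29.7% of rows in CPM. miR-431, which is known to act on Pax7 in muscle stem cells of mice, fell furthest, from 3849 ± 1378 CPM (SD, n = 8) to 6.30 ± 2.78 CPM, a log2 fold change of -8.24 ± 0.25 (SE, edgeR adjusted p = 7.75e-25). miR-434-3p, the second most abundant member, went from 22069 to 104.8 CPM, and miR-127-5p, the minor strand of its hairpin, from 620.2 to 1.81 CPM. The smallest fall was that of miR-136-5p, from 2639 ± 554.6 CPM to 17.3 ± 5.32 CPM, at -6.33 ± 0.20. The fall was spread over all 3 intervals. From week 2 to week 6 all 9 were called lower with a median log2 fold change of -2.34, against 20.8% of rows, and from week 6 to week 21 all 9 again with a median of -3.36, against 20.6% of rows. From week 21 to week 104 a further 4 of 9 were called lower, against 4.87% of rows. Within the first interval miR-431 fell by 4.67 on the log2 scale and miR-136-5p by 1.22.

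Marker lists of cell types were set beside the fall in muscle. From week 2 to week 104 the striated muscle list went from 7.67% to 14.4% of counts, the red blood cell list from 8.35% (4.10% to 16.1%) to 6.95% (3.69% to 8.76%), the mesenchymal list from 5.02% (4.39% to 5.64%) to 4.54% (3.04% to 6.66%) and the endothelial list from 1.40% to 1.21%. Nervous tissue, liver, germ cell, white blood cell and endocrine lists held at most 0.288% in any of these 16 libraries. The part of these shifts in the fall was not tested.

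In liver the fall came almost at once. miR-127-3p was at 15687, 32654 and 72988 CPM (lowest, median and highest of 8) at week 2, at 243.9, 878.0 and 2535 CPM at week 6 and at 82.6, 162.3 and 1024 CPM at week 104. Every week 2 library lay above every later one. The log2 fold change from week 2 to week 6 was -4.96 ± 0.46 (SE, edgeR adjusted p = 2.52e-11) and that from week 2 to week 104 was -6.88 ± 0.50 (adjusted p = 4.90e-14).

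The other members followed in liver, with 9 of 9 called lower at week 6 (18.5% of rows) and at week 104 (24.2% of rows), both against week 2. From week 6 to week 21 a further 4 were called lower, against 3.57% of rows. miR-136-3p fell most by week 104, from 2516 ± 901.4 CPM (SD, n = 8) to 6.25 ± 7.68 CPM, a log2 fold change of -8.49 ± 0.42. For miR-433-5p, which had no count in any of the 8 week 104 libraries, 3 counts per library would have been 3.10 CPM on average, so that it was at least 1.28-fold lower than its 3.97 CPM at week 2. Its call, which rests on a fitted change of over 2-fold, therefore goes beyond what that floor supports. The members' median log2 fold change was -6.88, also with that miRNA at its bound. A single week 104 library, from female 4, held 1024 CPM of miR-127-3p against 236.7 CPM in the next, and without the libraries numbered 4 the members' share at that age was 0.0151% in place of 0.0304%. Over the same span the liver list went from 3.19% to 3.29% of counts, the mesenchymal list from 5.86% (4.81% to 6.82%) to 4.04% (2.77% to 5.93%) and the white blood cell list from 0.234% to 0.518%; their part in the fall was not tested.

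Uterus showed 2 separate falls, in youth and in old age. The 4 libraries held 6164, 7899, 8160 and 8917 CPM of miR-127-3p at week 2, then 573.3, 1288, 1387 and 1892 CPM at week 6, then 647.9, 676.0, 989.7 and 1085 CPM at week 21, and at week 104 only 88.0, 105.5, 126.0 and 174.9 CPM. Weeks 6 and 21 overlapped, and the other steps did not. From week 21 to week 104 the log2 fold change was -2.28 ± 0.24 (SE, edgeR adjusted p = 1.66e-06), and 8 of 9 members were called lower, against 8.77% of rows, all but miR-433-5p, which stood at 0.532 CPM or less at every age. From week 2 to week 6 also 8 were called lower (17.4% of rows), from week 6 to week 21 a single one (4.06%), and from week 2 to week 104, 8 (24.5% of rows) with a median of -4.93. The mesenchymal list rose over the whole span from 27.5% (24.9% to 31.9%) to 45.5% (44.3% to 47.3%) of counts in uterus, and its part in the falls was not tested.

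Heart, lung, spleen, thymus and kidney lost these miRNAs to a lesser degree. Between week 2 and week 104 miR-127-3p went from a mean of 7089 to 994.3 CPM in heart, from 8138 to 1337 CPM in lung, from 5547 to 1223 CPM in spleen, from 2350 to 594.0 CPM in thymus and from 608.7 to 90.9 CPM in kidney. The week 2 range lay above the week 104 range in each of these 5 organs. Per the study, all week 2 spleen RNA was less intact than later spleen RNA. Age and RNA integrity therefore cannot be told apart in any spleen comparison with week 2. The scaled log2 fold changes were -2.28 ± 0.24 in heart, -2.41 ± 0.23 in lung, -1.92 ± 0.17 in spleen, -2.10 ± 0.25 in thymus and -2.46 ± 0.28 in kidney (SE, edgeR adjusted p at most 6.90e-09).

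The calls for that span were 9 of 9 in heart, lung and spleen (in spleen miR-433-5p rests on 15 counts in all at week 2), 8 in thymus and 7 in kidney, all lower, against 16.2%, 20%, 18.0%, 25.2% and 17.4% of rows in the same direction. With the spleen library that was set aside put back, the value of rno-miR-127-3p in spleen, log2 fold change week 104 against week 2, was -0.818 and no longer passed (adjusted p = 0.0904, edgeR). miR-433-5p was the member not called in thymus, and both arms of miR-433 were not called in kidney, where miR-433-5p had no count in any library after week 2. By week 6, 8 members had already been called lower in heart, 8 in kidney, 9 in lung, 7 in spleen and 8 in thymus, against 10.7%, 13.3%, 14.4%, 13.3% and 8.77% of rows. In heart and lung 7 and 6 members were called lower again from week 6 to week 21, against 7.79% and 6.98% of rows, and in thymus 1 was, against 1.62%. miR-431 had a larger fitted fall than miR-127-3p in each of them, with log2 fold changes of -3.79 in heart, -3.97 in lung, -2.51 in spleen, -4.10 in thymus and -4.53 in kidney. The difference between these 2 miRNAs was not tested. The kidney value rests on few counts, from 8.83 CPM at week 2 to 0.305 CPM at week 104, and 6 of 32 kidney libraries held none.

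**Figure D2:**
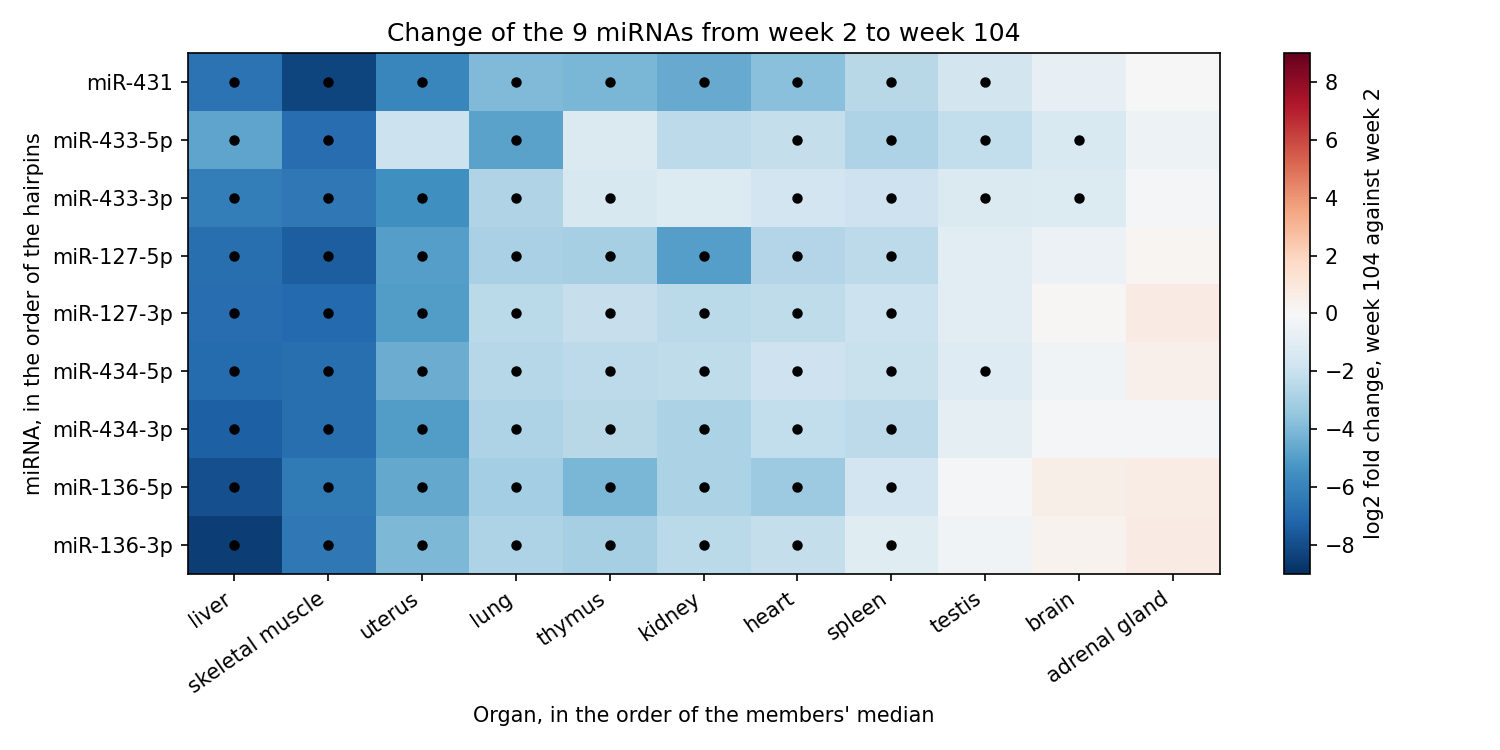
Scaled log2 fold change from week 2 to week 104 for the 9 miRNAs (rows, in hairpin order) in the 11 organs (columns, by the members' median); blue is lower and red higher at week 104, and a dot marks a call (adjusted p under 0.05 and at least 2-fold). Liver and muscle are dark blue with 9 dots each, whereas brain holds 2 dots and adrenal gland none; by totals alone brain has 3, testis 9, uterus 9 and thymus 7.

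Brain and adrenal gland held high levels of most of these miRNAs to old age. In brain, miR-127-3p was at 137065, 175208 and 213984 CPM (lowest, median and highest of 8) at week 2 and at 108994, 134898 and 168752 CPM at week 104, and in adrenal gland at 38108, 68969 and 88004 CPM and then at 61721, 79764 and 126275 CPM. In both organs the 2 ages overlapped. The log2 fold change in brain was 0.10 ± 0.10 (SE, edgeR adjusted p = 0.418), with its sign turned when libraries were scaled by their totals alone, to -0.31 with an adjusted p of 0.00806, a change under 2-fold. In adrenal gland it was 0.76 ± 0.17 (adjusted p = 0.000336), under the 2-fold limit, and 0.37 by totals alone.

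Between week 2 and week 104, 2 members were called lower in brain, against 14.0% of rows, and none in adrenal gland, against 17.0%. No member was called higher in either, against 10.7% and 10.4%. In both organs further members had an edgeR adjusted p under 0.05 with a change under 2-fold, and the share of all rows that did was not counted. The 2 called lower in brain were the arms of miR-433. miR-433-3p went from 784.3 ± 95.9 CPM (SD, n = 8) to 254.1 ± 32.4 CPM, a log2 fold change of -1.21 ± 0.09 (SE, edgeR adjusted p = 3.05e-12), and miR-433-5p from 121.7 ± 29.9 CPM to 35.02 ± 7.01 CPM, at -1.37 ± 0.12 (adjusted p = 9.25e-11). Under the 2-fold limit, miR-431 fell by 0.75 and miR-127-5p by 0.54 on the log2 scale in brain, while miR-136-5p rose by 0.55, each with an adjusted p under 0.05. Both arms of miR-433 lay below their week 2 ranges in every week 104 library in CPM, and the share of all rows that did was not counted.

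In testis the size of the fall depended on the scaling. The 4 libraries held 11426, 13316, 13611 and 16651 CPM of miR-127-3p at week 2 and 1717, 1937, 2596 and 2660 CPM at week 104. No member overlapped between these ages in CPM, but the same held for 63.6% of all rows, with week 104 lower. On the scaled counts the log2 fold change was -0.995 ± 0.21 (SE, edgeR adjusted p = 0.000513), just short of the 2-fold limit, and 4 of 9 members were called lower, against 33.0% of rows. By totals alone it was -2.63, and all 9 were called. Of the 9, 6 were called lower by week 6 (21.6% of rows) and 1 from week 6 to week 21 (1.62%), on the scaled counts.

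The same held between week 21 and week 104 in testis, where 4 members, miR-127-3p, miR-127-5p, miR-136-5p and miR-434-5p, were called higher and miR-433-5p lower, against 20.3% and 22.7% of rows. For miR-127-3p the scaled log2 fold change was 1.02 ± 0.21 (SE, edgeR adjusted p = 0.000389), although its mean CPM went from 2775 to 2227, a turn of direction with the scaling. The germ cell list left the testis counts between these ages, from 20.2% (17.5% to 22.3%) to 0.151% (0.0162% to 0.354%), and its part was not tested. Over all organs, where these 4 were the only calls higher, 1 call was made with a mean count of at least 10 and 0 with lane as a covariate. In the other organs, scaling by totals moved the median change of the members by -0.95 to 0.27 on the log2 scale between week 2 and week 104, and the members called lower were then 9 in uterus, 3 in brain and 7 in thymus.

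Over the 11 organs, 74 of the 99 comparisons of week 104 with week 2 were called lower and none higher. These were 21.7% of comparisons over all rows. By interval, 72 were called lower from week 2 to week 6 (14.1% over all rows), 29 from week 6 to week 21 (5.22%) and 13 from week 21 to week 104 (5.73%). The 4 calls of testis in the last interval were the only ones higher (3.98%). Other miRNAs of the region, a list of 73 rows with 11 upstream and 62 downstream of the 5 hairpins that does not hold miR-341, fell in the same organs. Of the 73, 73 were called lower from week 2 to week 104 in muscle (29.1% of all rows), 67 in liver (24.2%), 62 in uterus (24.5%) and 61 in lung (20%), with medians of -5.87, -6.34, -4.37 and -2.19. Spleen had 51 (18.0%), heart 49 (16.2%), thymus 43 (25.2%) and testis 38 (33.0%) of them. In kidney 12 of the 73 were called lower, a share near the 17.4% of all rows, with a median of -0.77, beside 7 of 9 and -2.46 among the Rtl1-antisense miRNAs; the difference was not tested. Brain had 18 lower (14.0%) and 2 higher (10.7%), and adrenal gland 3 lower (17.0%) and 12 higher (10.4%). miR-411-5p, the most abundant of the list, went from 26866 to 181.4 CPM in muscle and from 12481 to 8469 CPM in brain, where its log2 fold change of -0.13 did not pass the test (edgeR adjusted p = 0.250). miR-410-3p, the next, went from 9138 to 31.4 CPM in muscle and fell in brain as well, from 15180 to 4087 CPM (-1.46 ± 0.10, SE, adjusted p = 1.50e-12). miR-541-5p went from 4310 to 28.3 CPM in muscle and from 3791 to 10.1 CPM in liver.

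Whether an organ's age change differed from that of the brain was tested in 1 fit over all organs. For miR-127-3p, the change from week 2 to week 104 was lower than in brain in 8 organs, with differences of -6.93 ± 0.42 in muscle, -6.92 ± 0.42 in liver, -5.48 ± 0.51 in uterus, -2.66 ± 0.39 in kidney, -2.62 ± 0.39 in heart, -2.59 ± 0.39 in lung, -2.55 ± 0.39 in thymus and -2.19 ± 0.40 in spleen (log2, SE, edgeR adjusted p at most 1.56e-06). In testis the difference was -1.06 ± 0.47 (adjusted p = 0.0605) and in adrenal gland 0.79 ± 0.38 (adjusted p = 0.102), neither past the threshold. Over the members, 9 of 9 were lower than in brain in muscle, liver and lung, against 27.6%, 24.0% and 23.5% of rows. Uterus had 8 (33.4% of rows), and heart, kidney, spleen and thymus 7 each (21.4%, 20.8%, 25.0% and 34.3%). Testis had none by edgeR, against 24.0% of rows, with miR-127-3p the nearest to the threshold. In adrenal gland 5 were higher than in brain, against 18.3% of rows, namely miR-127-5p, miR-431, miR-434-5p and both arms of miR-433, and that count was 2 with 3 libraries that stood apart left out, 2 by totals alone, and 0 to 2 with any 1 replicate number left out.

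In the oldest animals these miRNAs were most abundant in brain and adrenal gland. In mean CPM at week 104, miR-127-3p stood at 137803 ± 19669 in brain and 85800 ± 19727 in adrenal gland (SD, n = 8), then at 2227 ± 472.1 in testis (n = 4), with the other organs between 90.9 in kidney and 1337 in lung. At week 2 the order had been muscle, brain, adrenal gland, liver, testis, lung, uterus, heart, spleen, thymus and kidney. Of the 10 neighbours in the order, 5 differed at week 2, 6 at week 6, 8 at week 21 and 6 at week 104 (edgeR adjusted p under 0.05). Those that did not at week 2 were brain and adrenal gland, testis and lung, lung and uterus, heart and spleen, and spleen and thymus. The order is by CPM but the tests used scaled counts, so which neighbours differed depends on the scaling. By totals alone brain and adrenal gland did differ at week 2 (adrenal gland minus brain -1.37 on the log2 scale, edgeR adjusted p = 3.16e-06).

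At weeks 21 and 104 each of the 9 members was called higher in adrenal gland than in every one of the 9 organs other than brain, by adjusted p under 0.05 and at least 4-fold, where 14.1% and 16.2% of rows were. In brain the same held for 8 of 9 at both ages, where 20.9% and 22.6% of rows were, miR-431 being higher than in 8 of the 9 organs. For miR-127-3p the smallest of these differences at week 104 was 4.43 on the log2 scale for brain and 4.93 for adrenal gland. At week 2, muscle and liver were the exceptions: miR-127-3p was called higher in brain than in 7 of the 9, and in muscle it was above brain by 1.73 ± 0.26 (SE, edgeR adjusted p = 1.34e-08).

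Between brain and adrenal gland the members divided. miR-431 was at 97.1 ± 14.0 CPM in brain and 1023 ± 320.7 CPM in adrenal gland at week 104 (SD, n = 8), at 220.3 ± 28.8 and 1313 ± 306.0 CPM at week 2. No brain library reached the lowest adrenal library at either age. The log2 difference, adrenal gland minus brain, was 3.57 ± 0.28 at week 2, 4.36 ± 0.22 at week 6, 4.23 ± 0.32 at week 21 and 4.55 ± 0.33 at week 104 (SE, edgeR adjusted p at most 5.59e-20), where 13.3%, 18.2%, 15.3% and 13.8% of rows were called at least 4-fold lower in brain. By totals alone it was 2.58 to 3.40. miR-127-3p did not pass the test at any age between these organs, with scaled differences of -0.35 to 0.50, and by totals alone they were -1.42 to -0.68 and passed at all 4 ages (adjusted p at most 0.0491, edgeR), so that the direction at weeks 21 and 104 turned with the scaling.

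**Figure D3:**
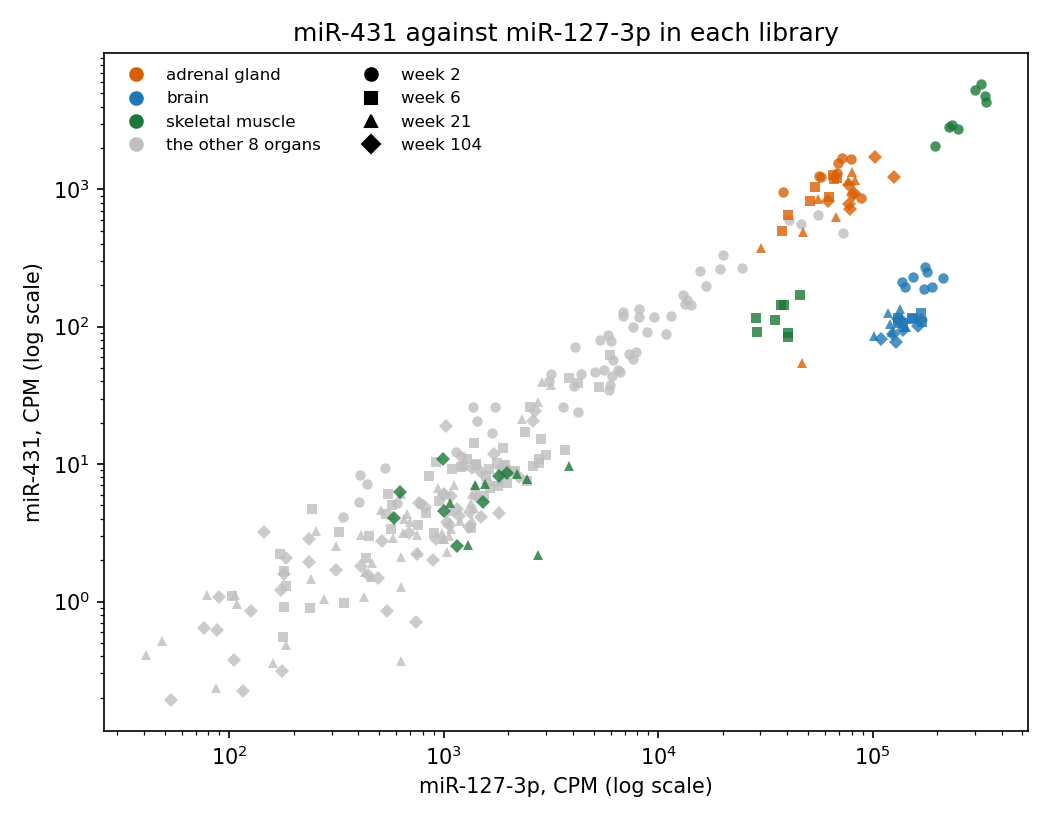
CPM of miR-431 against CPM of miR-127-3p (both log axes) in 306 libraries, coloured for adrenal gland, brain and skeletal muscle with the other 8 organs in grey, and shaped by age; 12 libraries with no miR-431 count are left off. Brain lies below the adrenal gland and week 2 muscle libraries in miR-431 at high miR-127-3p, and 1 adrenal gland point, male 1 of week 21 at 54.7 CPM, lies apart from the rest of its organ.

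miR-431 was also set against miR-127-3p of the same library, which needs no scaling between libraries; changes of this percentage were not tested. Its count as a percentage of that of miR-127-3p was 2.05 ± 0.465 in adrenal gland and 0.131 ± 0.0221 in brain at week 2 (SD, n = 8), and 1.196 ± 0.253 and 0.0709 ± 0.0091 at week 104. In muscle it was 1.37 ± 0.284 at week 2 and 0.325 ± 0.0741 at week 6, with no overlap between those ages, and 0.586 ± 0.315 at week 104. Brain held the lowest percentage of the 11 organs at every age.

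The fall of 4 of these miRNAs in muscle was steeper in males. At week 2 the 4 females held 194906, 227328, 234466 and 249122 CPM of miR-127-3p and the 4 males 300252, 319451, 334364 and 336300 CPM, and at week 104 the females held 1152, 1530, 1814 and 1975 CPM and the males 588.6, 628.5, 996.4 and 1007 CPM. In CPM, males were above all females at week 2 and below all at week 104. The share of all rows whose sexes lay apart in this way was not counted. The change from week 2 to week 104, females minus males, was 1.39 ± 0.39 on the log2 scale (SE, edgeR adjusted p = 0.0370).

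In muscle 4 of 9 members passed this test of sex by age, against 4.38% of rows. The others were miR-136-3p, with 1.40 ± 0.33 (edgeR adjusted p = 0.0114), miR-434-5p, with 1.61 ± 0.34 (adjusted p = 0.00577), and miR-434-3p, with 0.99 ± 0.30 (adjusted p = 0.0474). For miR-434-5p the females held 1416, 1884, 2102 and 2499 CPM at week 2 and the males 3234, 3426, 3484 and 3704 CPM, and at week 104 the females 14.4, 15.7, 15.8 and 24.3 CPM and the males 7.23, 7.40, 8.69 and 12.8 CPM. These groups did not overlap at either age in CPM, again with no share of all rows counted. At weeks 6 and 21 the sexes overlapped for all 4 of these miRNAs. In the other 8 organs of both sexes no member passed, the lowest adjusted p being 0.0884, for miR-434-3p in liver (edgeR). Leaving out the libraries of any 1 replicate number left 1 or 2 calls over the 9 organs.

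**Figure D4:**
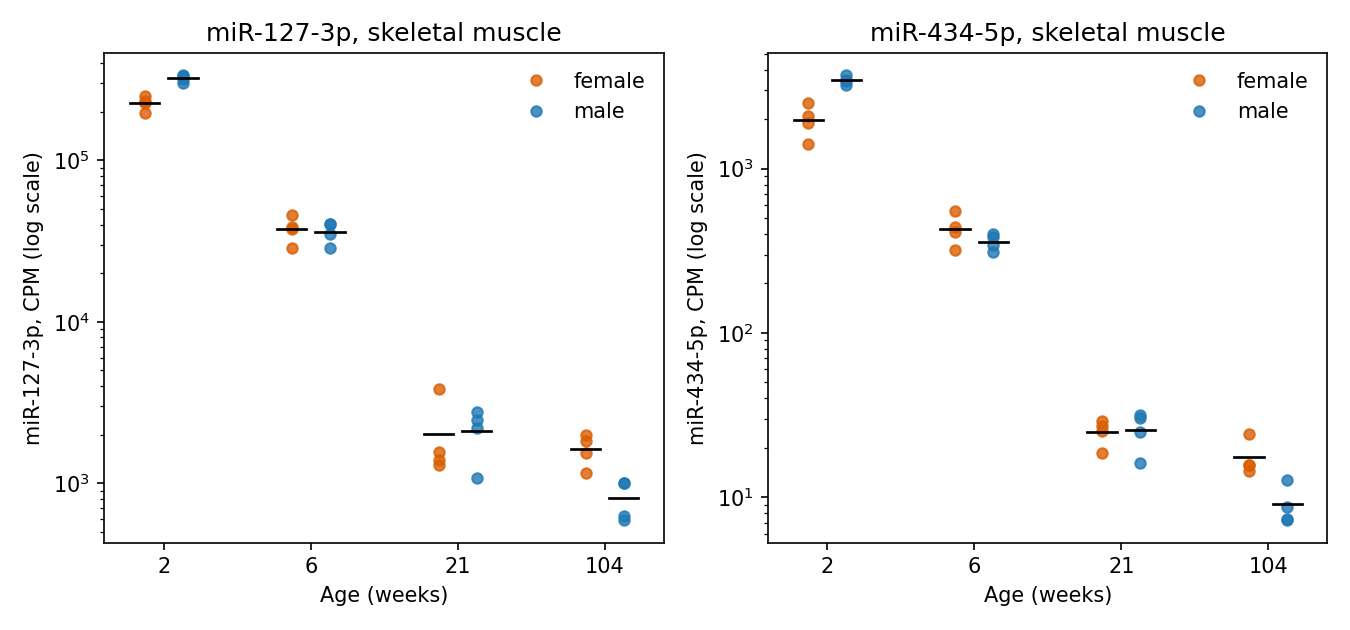
CPM (vertical log axis) of miR-127-3p and miR-434-5p in skeletal muscle by age in weeks; points are libraries, coloured by sex, and black bars are means of 4. Males lie above females at week 2 and below them at week 104, and at weeks 6 and 21 the sexes overlap.

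Averaged over ages, 4 of 81 sex differences passed, 3 in adrenal gland and 1 in thymus. The share of all rows that passed over the same 9 organs was not counted. In adrenal gland, miR-431 was higher in females by 0.54 ± 0.14 (log2, SE, edgeR adjusted p = 0.0211), miR-433-3p by 0.47 ± 0.09 (adjusted p = 0.00116) and miR-434-3p by 0.31 ± 0.09 (adjusted p = 0.049985), against 5.03% of rows called in either direction. Without the 3 libraries that stood apart, these were 0.49, 0.48 and 0.34, and miR-136-3p passed as well, at 0.30 (adjusted p = 0.0220). miR-431 overlapped between the sexes at weeks 2, 6 and 104, with female means of 1367, 1125 and 1205 CPM and male means of 1258, 767.2 and 840.6 CPM (n = 4 each). At week 21 the females held 855.9, 1154, 1165 and 1333 CPM and the males 54.7, 375.2, 490.7 and 629.6 CPM, with no overlap. In thymus the difference of miR-434-3p, females minus males, was -0.50 ± 0.13 (adjusted p = 0.0323), against 2.27% of rows. With the sequencing lane as a term of the fit, none of these 4 passed.

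The 2 arms of a hairpin did not keep a constant ratio between organs. In week 2 brain the log2 ratio of the 3p to the 5p count of miR-136 was 2.17, 2.62 and 2.90 (lowest, median and highest of 8), and the other 10 organs had means of 0.64 in thymus to 1.56 in liver, with a highest single library of 2.12. Brain lay above all of them without overlap. The difference was 1.05 to 1.97 on the log2 scale, with an adjusted p of 0.0008 for the 8 organs with 8 libraries and 0.0056 for testis and uterus (exact permutation tests, two-sided, 39 comparisons over the 4 hairpins, 22 with an adjusted p under 0.05). Each unadjusted p was the smallest the test could give for its group sizes, so the adjusted values do not rank the organs. In heart the ratio was 1.14, 1.61 and 1.75 at week 2 (lowest, median and highest of 8), with a mean of 2.71 at week 104 and no overlap between the ages, a difference that was not tested. In brain the mean went from 2.61 at week 2 to 2.35 at week 104 (adjusted p = 0.0402, exact permutation test), below the heart mean of that age.

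The other hairpins passed the test against brain in fewer organs. For miR-127 the 3p strand exceeded the 5p strand by 8.14 ± 0.39 on the log2 scale in week 2 brain (SD, n = 8), which was below muscle at 8.80 ± 0.18, heart at 8.82 ± 0.33 and uterus at 9.02 ± 0.47 (adjusted p = 0.0012, 0.0044 and 0.0131, exact permutation tests), with overlap in each case. In week 104 brain it was 8.79 ± 0.34 (adjusted p = 0.0091 against week 2). For miR-433 the ratio was 2.71 ± 0.39 in week 2 brain, 3.67 ± 0.48 in adrenal gland (adjusted p = 0.0012) and 1.98 ± 0.41 in muscle (adjusted p = 0.0056), and for uterus its direction depended on the pseudocount. miR-434 differed from brain in spleen by -0.63, in uterus by -0.59, in testis by 0.53 and in thymus by 0.38 (adjusted p = 0.0089, 0.0338, 0.0197 and 0.0195). Week 2 spleen RNA was less intact, and its part in the spleen ratios was not tested. The 3p strand was the more abundant in the mean of each group of week 2 libraries with at least 20 counts.

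**Figure D5:**
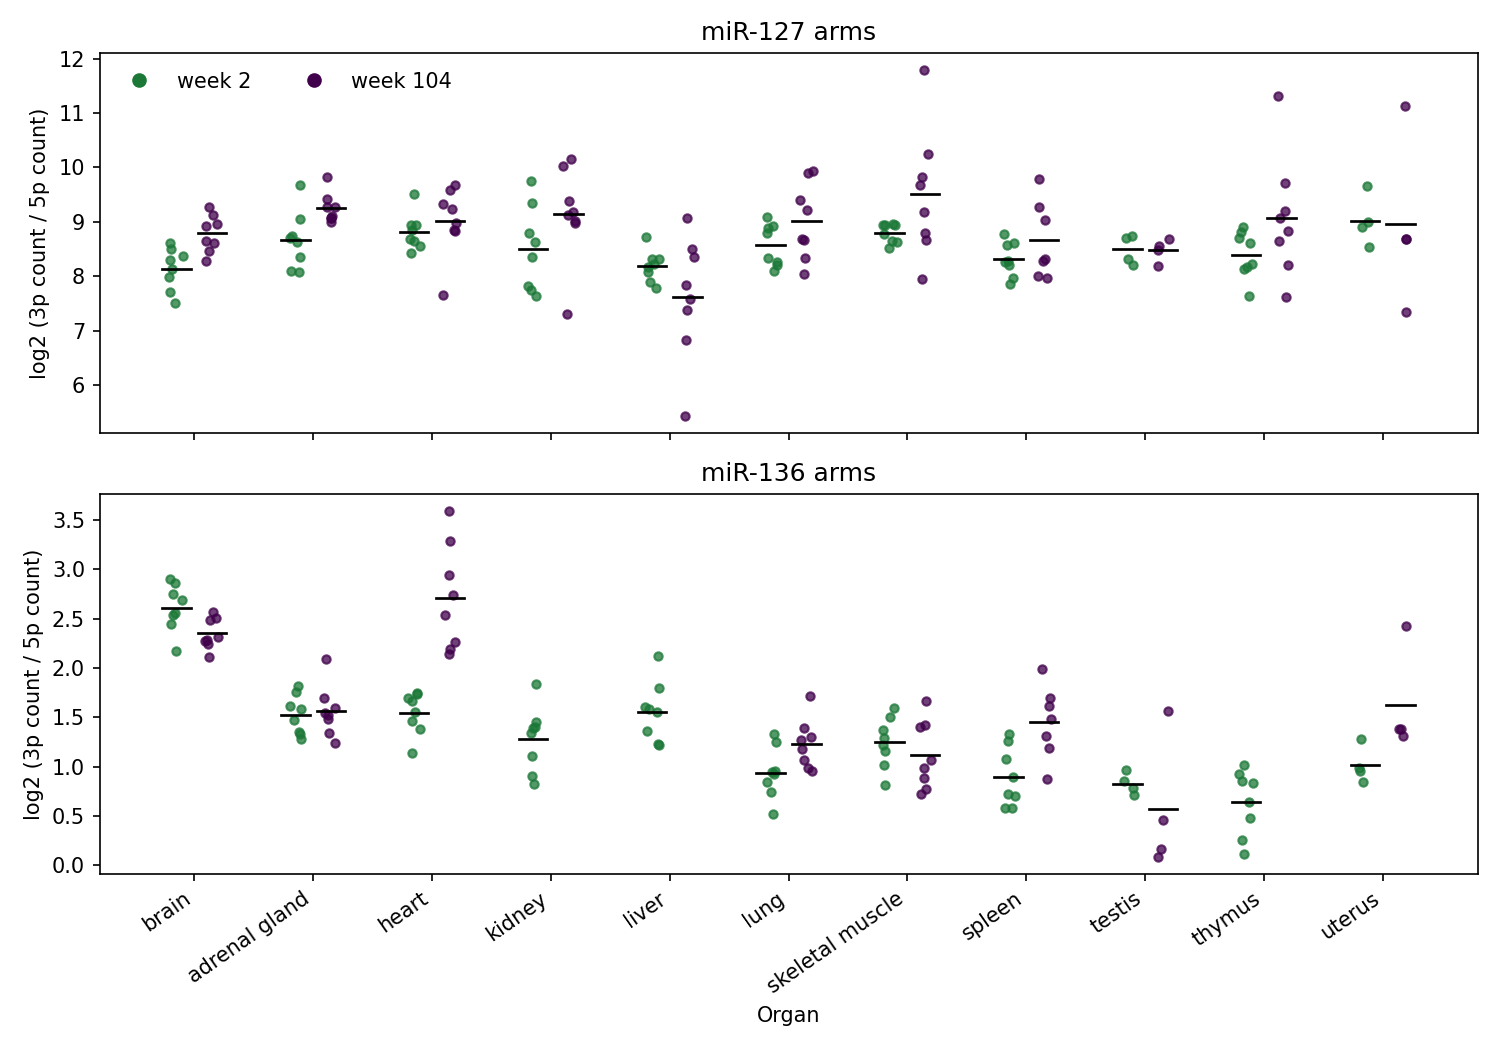
Log2 ratio of 3p to 5p counts for miR-127 (upper panel) and miR-136 (lower panel) by organ at weeks 2 and 104; points are libraries and black bars are group means, with groups left out where a library had under 20 counts over both arms. For miR-136 the week 2 brain libraries, at 2.17 or above, lie over every other week 2 library, and heart has means of 1.55 at week 2 and 2.71 at week 104.

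The rows most like miR-127-3p over the 44 groups of organ and age came from the same chromosomal region. Leaving the members aside, the 5 highest Pearson correlations of mean log2(CPM + 1) were those of miR-341 (0.987), miR-337-5p (0.974), miR-673-3p (0.970), miR-411-3p (0.969) and miR-381-3p (0.967), given as a description, since the groups share organs and scaling. RefSeq places all 5 on chromosome 6. miR-341 went from 2838 to 13.9 CPM in muscle between weeks 2 and 104, from 294.8 to 4.59 CPM in liver and from 6556 to 1898 CPM in brain, where its log2 fold change was -1.35 ± 0.11 (SE, edgeR adjusted p = 4.43e-11) beside 0.10 for miR-127-3p.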

How the data were processed

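The authors deposited 1 table of raw read counts per mature miRNA and library. Per the study's methods, adapters were removed with fastp 0.23.2, reads of 16 to 35 bases were kept, and Bowtie 1.3.1 aligned them, with under 2 mismatches, to mature miRNAs, other small RNAs and the rn7 genome. No molecular identifiers are described, so floors cover counting error only. The members and lists were chosen with earlier results of these data known.

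CPM were computed from column totals. Tests used edgeR 4.0.16 in R 4.3.3 (quasi-likelihood, TMM scaling, Benjamini-Hochberg adjustment over all 616 rows), with 1 fit per organ over age and sex, 1 per age over organs and 1 over all organs. SE are the size of the log2 fold change over the root of F. Arm ratios used a pseudocount of 0.5 where every library had at least 20 counts over both arms, with exact permutation tests (NumPy 2.4.6). The text names the members, the 3 most abundant rows of the list of other miRNAs of the region, and the 5 rows most like miR-127-3p. On simulated counts with 200 changes of 4-fold and 416 unchanged rows, 200 were recovered with 3 false calls for age in heart, 200 with 12 for sex and 184 with 5 for sex by age in heart, and 198 with 7 for liver against brain. For brain against heart at 16-fold it was 200 with 1. The changed rows all had a mean count of at least 10, and every row had a spread (dispersion) of 0.1. Recovery of rows with fewer counts or a wider spread was therefore not tested. Of 480 pairs of replicates, none agreed within sampling noise.

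Alternatives were library-size scaling, DESeq2 1.42.0, a mean count of at least 10, lane as a covariate, the replicate number as a block, all 320 libraries, other fold limits and pseudocounts, and leaving out each replicate number. Leaving out 3 libraries was added after seeing the data: male 1 adrenal gland at week 21 and male 1 thymus at week 104, the 2 kept libraries farthest from their groups, and female 4 brain at week 104, for its low miRNA share in the study's notes. Mature sequences came from the deposited table and hairpins from RefSeq (GRCr8).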

Additional observations from a re-analysis of the deposited data

Results flagged for a closer look

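Within groups of 4 to 8 libraries of an organ and age, a single library stood far from the rest for miR-127-3p in 6 of 44 groups. The rule used marks about 5% of groups when values are normally distributed, which was not checked for these CPM. In all 6 groups the library was the highest. Kidney of male 1 at week 2 held 1363.93 CPM against 777.8 CPM in the nearest library, and its liver marker list held 685.2 CPM against at most 12.5 CPM in the others. Kidney of male 3 at week 21 held 276.603 CPM (nearest 108.9 CPM), and thymus of male 4 at week 6 held 1340.92 CPM (761.2 CPM). Liver of female 4 held 2534.76 CPM at week 6 (1092 CPM), liver of another female numbered 4 held 1023.68 CPM at week 104 (236.7 CPM), and spleen of female 1 at week 21 held 1838.77 CPM (1437 CPM). Marker lists were above all other libraries of the group also in the liver at week 104 (4 lists, among them mesenchymal cells at 59263 against at most 50025 CPM), the liver at week 6 (endocrine), the thymus (mesenchymal cells and endothelium), the spleen (striated muscle, germ cells and white blood cells) and the week 21 kidney (white blood cells), and in the week 2 kidney the nervous tissue list as well. Their part in these values was not tested.

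The log2 ratio of 3p to 5p counts had such a library in 6 of the 47 groups examined. These were not all groups with enough counts, and they held week 21 adrenal gland, which entered no arm ratio test. Adrenal gland of male 1 at week 21, the library farthest from its group in the whole table, had -3.677 for miR-136 (nearest 1.17) and 4.979 for miR-433 (3.93). The other 4 were heart of male 2 at week 2 with 9.506 for miR-127 (8.94), muscle of female 3 at week 2 with 1.066 for miR-433 (1.81), liver of male 2 at week 2 with 2.658 for miR-434 (3.36) and spleen of male 4 at week 2 with 3.052 for miR-434 (3.71).

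Differences between groups in the change from week 2 to week 104 passed the edgeR test for miR-127-3p in 8 organs against brain, at -2.623 in heart, -2.655 in kidney, -6.924 in liver, -2.594 in lung, -6.932 in skeletal muscle, -2.187 in spleen, -2.55 in thymus and -5.483 in uterus (log2). In muscle the change differed between females and males by 1.385 for miR-127-3p, 0.9872 for miR-434-3p, 1.4 for miR-136-3p and 1.61 for miR-434-5p.

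Both libraries left out of the comparisons held miR-127-3p. The male week 6 brain library had 75615.6 CPM, below the 130852 CPM of the lowest kept brain library of that age. The female week 104 spleen library had 21845.4 CPM, where the kept ones averaged 1223 CPM.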

How the results depend on the processing

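Each single tested value was recomputed under each alternative that applied to it. Of these recomputed values, 1078 kept direction and side of the threshold, 72 lost the threshold and 2 reversed: the value of rno-miR-433-3p in spleen, log2 fold change week 104 against week 2, was 0.05061 with all 320 libraries (against -1.84), and the arm ratio of miR-433, brain week 2 minus uterus week 2, was 0.1273 with a pseudocount of 5 (against -1.27). With all 320 libraries, rno-miR-127-3p in spleen, log2 fold change week 104 against week 2, was -0.818 (edgeR adjusted p = 0.0904), against -1.92, so that call rests on leaving out the spleen library the study set aside. Counts of calls moved by over 1.5 times as follows; the cause was not tested. Comparisons higher at week 104 than at week 21 (4) were 1 with library-size scaling, 1 with a mean count of at least 10 and 0 with lane as a covariate. Sex differences (4) were 2 with library-size scaling and 0 with lane, and sex by age calls (4) were 7 with DESeq2 and 8 with lane. Age changes higher than in brain (5) were 2 with library-size scaling and 2 without the 3 libraries that stood apart. With no fold limit the comparisons called higher, week 6 against 2, 21 against 6, 104 against 21 and 104 against 2, were 2, 2, 11 and 6, against 0, 0, 4 and 0. With a 2-fold in place of a 4-fold limit, 13 organ differences were lower in brain, against 6.

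Leaving out each replicate number in turn gave 2 to 5 comparisons higher at week 104 than at week 21, 0 to 4 sex differences, 1 to 2 sex by age calls and 0 to 2 age changes higher than in brain, and 71 to 75 comparisons lower at week 104 than at week 2 (74). Libraries with the same number did not deviate together (mean r of 0.008 between organs of a sex and age), so they were not treated as pairs, although the numbers may mark the same rat across organs; with the replicate block, 76 comparisons were lower at week 104 than at week 2 and 3 sex differences passed. With TMM-scaled totals, 20 of 44 group shares of the members moved by more than 1 SD, among them brain at every age. Depth limits miR-433-5p, which averaged under 3 counts per library at every age in kidney, spleen, thymus and uterus, so that its values there are uncertain.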
